A study of Mus musculus with 10 samples.

Results

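The Toll-like receptor genes of cultured mouse adipocyte precursors (APs) and Cd14, the gene of a co-receptor, were followed with and without interleukin-4 (IL-4). The 10 genes were Tlr1, Tlr2, Tlr3, Tlr4, Tlr6, Tlr7, Tlr8, Tlr9, Tlr13 and Cd14, taken by name out of 18384 genes listed with a symbol in the mRNA-seq files. They were chosen with earlier results of these data known, and they leave out Tlr5, which rose and is given with the other TLR genes further on. The APs came from the subcutaneous white adipose tissue of C57BL/6J mice. They were isolated with magnetic beads by removing cells that carry CD45 or CD31 and then keeping cells that carry SCA-1. 3 control cultures and 3 cultures kept in medium with IL-4 were harvested on day 4, and polyadenylated RNA was sequenced. No transgene, deletion or other agent is named for either group, and the age and sex of the mice and the dose of IL-4 are not given in the sources used here. The study calls the libraries biological replicates, but the labels do not say whether they came from separate animals, so the p-values measure the spread between these libraries, which may be technical.

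Toll-like receptors (TLRs) bind molecules that microbes or damaged cells release. Receptors at the cell surface bind lipids and proteins of microbial envelopes, whereas those in endosomes bind nucleic acids. Through the adaptors MyD88 and TRIF they turn on NF-kappaB, AP-1 and interferon regulatory factors, which switch on cytokine and chemokine genes. Macrophages express many TLRs, and preadipocytes and adipocytes are also known to express some, TLR4 among them. IL-4 is a type 2 cytokine that acts through STAT6.

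All 10 genes had enough reads to be tested, Tlr9 in the control libraries only. The read filter thus fixed the direction of Tlr9, which is included in the counts, shares and median that follow. Of the 10 genes, 5 fell with IL-4 (Tlr2, Tlr7, Tlr9, Tlr13 and Cd14), 2 rose (Tlr4 and Tlr8) and 3 did not pass the test (Tlr1, Tlr3 and Tlr6). A call needed an adjusted p under 0.05 from the quasi-likelihood test of edgeR with the Benjamini-Hochberg method applied to 14009 genes. Over all genes tested, 18.9% were called higher and 18.3% lower. All 5 falls were beyond 2-fold, against 5.25% of all genes, and no rise was, against 5.77% of all genes. The normalized counts of the groups did not overlap for 7 of the 10 genes, against 50.4% of all genes. The median log2 fold change of the 10 genes was -0.75, and that of all genes tested was 0.0026.

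**Figure D1:**
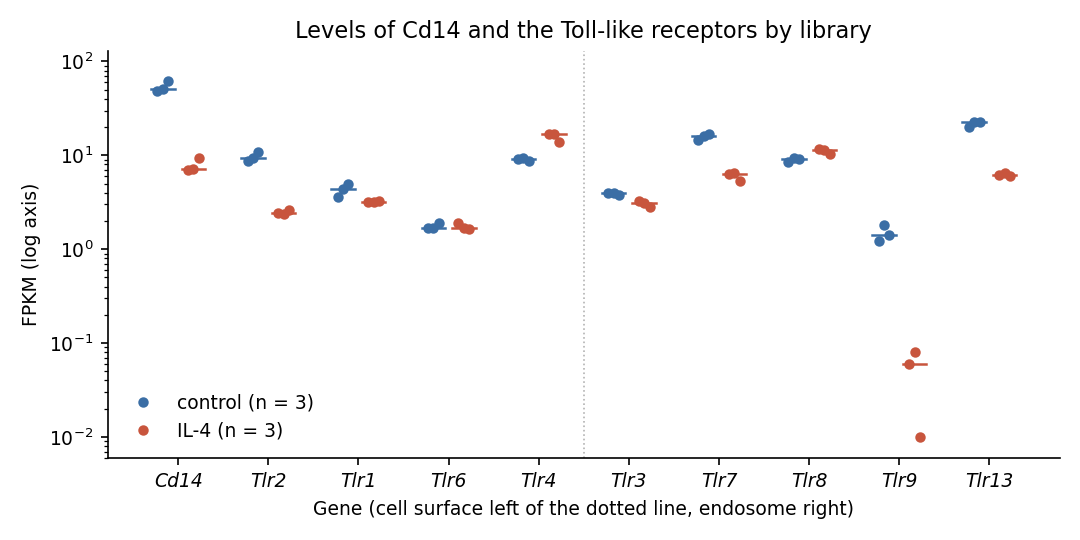
FPKM (fragments scaled by the authors for transcript length and library size, log axis) of each gene in the 3 control libraries (blue) and the 3 IL-4 libraries (red), with a bar at the group median. Cd14 had the highest control level at 47.98 to 61.16, and Tlr9 in the IL-4 libraries the lowest at 0.01 to 0.08.

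Depth differed little between libraries, at 28526782 to 28674604 expected counts without IL-4 and at 28914003 to 29057787 with it. The 10 most abundant genes held 9.14% to 9.59% of the control counts and 13.8% to 15.5% of the IL-4 counts. The median log2 fold change of all genes tested was -0.17 on log2(FPKM + 0.1) and 0.0026 with normalized counts. FPKM therefore run somewhat lower with IL-4 than normalized counts do. The cells carried the markers of their label as well as those of another lineage. The summed FPKM of 10 AP markers was 3805 to 4127 in the control and 4331 to 4690 in the IL-4 libraries, most of it Col1a1 (3166.6 to 3472.7 and 3430.32 to 3859.69). Of this list, 7 genes rose, among them Pi16, Cd34 and Cd55 with log2 fold changes of 4.02, 3.35 and 3.14, Pdgfrb and Lum fell (-0.66 and -0.61) and Dpp4 did not pass the test. For this and the marker lists below, the shares over all genes tested were 18.9% higher and 18.3% lower. The summed FPKM of 16 macrophage markers was 4842 to 6318 without IL-4 and 2034 to 2728 with it. Its largest part was Lyz2, at 2469.2 to 3224.52 FPKM without IL-4 and 673.21 to 937.0 FPKM with it, so the sum depends heavily on this gene. Ptprc, which encodes the CD45 used to remove cells, was at 16.95 to 19.0 FPKM in the control and at 8.0 to 8.48 in the IL-4 libraries. In a bulk sample, fewer cells of a type and less RNA per cell cannot be told apart. Of the macrophage list, 14 genes fell, Mrc1 rose and Cd68 did not pass the test, with a median log2 fold change of -0.83 and a range of -2.91 to 0.82. The part of these markers in the changes of the TLR genes was not tested. The summed markers of neutrophils were at 0.68 to 1.26 FPKM in the control and 0.77 to 1.07 in the IL-4 libraries, and those of lymphocytes at 1.02 to 1.25 and 0.3 to 0.48, with no row in any library for Elane, Cd3d, Cd3e, Cd3g and Ncr1. Endothelial markers summed to 14.32 to 14.98 and 15.09 to 17.26 FPKM, but single genes moved apart, with Vwf and Tek higher (log2 fold change 3.08 and 0.81), Cdh5, Emcn and Tie1 lower (-1.60, -1.49 and -1.16) and 3 of the 8 not past the test. Dendritic cell markers summed to 3.28 to 3.64 and 27.4 to 29.11 FPKM, most of it Itgax at 24.05 to 26.26 in the IL-4 libraries. Itgax (log2 fold change 4.13) rose, as did Batf3 (2.69), which had enough reads in the IL-4 libraries only. Zbtb46 did not pass the test, and Flt3, Xcr1, Clec9a and Ccr7 had too few reads to be tested in either group.

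Among the surface proteins, Cd14 showed the largest fall. CD14 is anchored in the outer membrane leaflet, takes up lipopolysaccharide from its binding protein and hands it to TLR4 and MD-2. Its level was 47.98, 51.03 and 61.16 FPKM in control replicates 1 to 3 and 6.99, 7.21 and 9.39 FPKM in IL-4 replicates 4 to 6. Every IL-4 library lay far below every control library. Normalized counts went from 2337 ± 286 to 388.0 ± 58.6 (SD, n = 3 each), and the fitted log2 fold change was -2.59 ± 0.13 (SE, adjusted p = 3.31e-06), or 6.02-fold lower. Control replicate 3 and IL-4 replicate 6 were the highest of their groups, and they also had the highest macrophage marker sums, at 6318 and 2728 FPKM. Most TLR genes did not share this order. By FPKM, Tlr1 and Tlr2 were also highest in IL-4 replicate 6 among the IL-4 libraries. Tlr3, Tlr4, Tlr6, Tlr7, Tlr8, Tlr9 and Tlr13 were lowest there. Of the macrophage markers, Csf1r, Itgam, Ptprc, Mrc1 and Mertk were lowest there and the others highest. A link between these orders was not tested. Without control replicate 3 the log2 fold change was -2.49, and without IL-4 replicate 6 it was -2.72.

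Tlr2 (chr3:83836272-83841824) encodes the surface receptor for bacterial lipoproteins, which works as a dimer with TLR1 or TLR6. It was at 8.66, 9.26 and 10.75 FPKM in the control and at 2.44, 2.38 and 2.64 FPKM in the IL-4 libraries. The groups were well apart, and the IL-4 libraries were close to each other. Normalized counts fell from 728 ± 77.2 to 214 ± 8.17, a log2 fold change of -1.77 ± 0.099 (adjusted p = 5.96e-06), or 3.4-fold lower.

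Tlr4 (chr4:66827551-66846581) encodes the receptor for lipopolysaccharide and went the other way. It was at 9.11, 9.43 and 8.7 FPKM in the control and at 16.67, 16.81 and 13.99 FPKM in the IL-4 libraries. All IL-4 libraries were above all control libraries, with IL-4 replicate 6 the lowest of them. Normalized counts rose from 1932 ± 94.7 to 3800 ± 441, a log2 fold change of 0.98 ± 0.093 (adjusted p = 0.000106), or 1.97-fold, just short of the 2-fold threshold. Without IL-4 replicate 6 the log2 fold change was 1.07 and without control replicate 2 it was 1.01, both past the threshold.

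Tlr1 (chr5:64924680-64933600) and Tlr6 (chr5:64953092-64970942) encode the partners of TLR2, which fit it for triacylated and diacylated lipoproteins. They lie 19491 bases apart and share long stretches of sequence, so reads from one can be assigned to the other. The coding sequence of each is 2388 bases, and 27.9% of its 25-base windows, 19.4% of its 50-base windows and 11.3% of its 100-base windows occur identically in the other. The longest identical run is shown because it limits how far the values of these genes can be separated. It spans 229 bases, at chr5:64925537-64925765 in Tlr1 (coding bases 1468 to 1696) and at chr5:64953828-64954056 in Tlr6 (coding bases 1474 to 1702), both on the minus strand of GRCm38.p6 (RefSeq):
Tlr1 and Tlr6: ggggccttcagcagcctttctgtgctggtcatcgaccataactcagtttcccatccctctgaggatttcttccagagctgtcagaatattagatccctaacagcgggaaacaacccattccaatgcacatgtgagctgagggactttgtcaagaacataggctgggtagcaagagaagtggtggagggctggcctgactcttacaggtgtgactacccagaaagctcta

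The expected counts of Tlr1 and Tlr6 were not whole numbers, unlike those of the other 8 genes, so both are given as uncertain. Tlr1 was at 3.56, 4.41 and 4.95 FPKM in the control and at 3.18, 3.22 and 3.27 FPKM in the IL-4 libraries. The FPKM of the groups did not overlap, but the normalized counts did, with control replicate 1 at 265 and IL-4 replicate 5 at 274. The log2 fold change was -0.27 ± 0.13 (adjusted p = 0.131). Tlr6 was at 1.67, 1.7 and 1.9 FPKM in the control and at 1.9, 1.7 and 1.63 FPKM in the IL-4 libraries, so the groups overlapped. Its log2 fold change was 0.16 ± 0.12 (adjusted p = 0.319), and it was -0.01 with library totals and with limma on either FPKM scale. Tlr1 passed the test without control replicate 1, its lowest control library (log2 fold change -0.40, adjusted p = 0.0228), with library totals (adjusted p = 0.0224) and with limma on log2(FPKM + 0.1) (adjusted p = 0.033) or on log2(FPKM + 1) (adjusted p = 0.0337).

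In the endosomal group, 3 of 5 genes fell, 1 rose and 1 did not pass the test, with a median log2 fold change of -1.23. The falls and this median include Tlr9, whose direction the read filter fixed. The other endosomal log2 fold changes were -1.64 (Tlr13), -1.23 (Tlr7), -0.16 (Tlr3) and 0.48 (Tlr8). Of the surface group with Cd14, 2 of 5 fell, 1 rose and 2 did not pass the test, with a median of -0.27. Of all genes tested, 18.3% were called lower and 18.9% higher. Whether the endosomal and surface groups differ from each other was not tested.

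Tlr9 (chr9:106222598-106226876) encodes the receptor for unmethylated CpG DNA and had the largest fall of the 10 genes. It was at 1.21, 1.83 and 1.42 FPKM in the control and at 0.06, 0.08 and 0.01 FPKM in the IL-4 libraries. The expected counts behind these values were 118, 178 and 139 in the control and 6, 8 and 1 in the IL-4 libraries, or 435 against 15 in all. Tlr9 was thus low in the control libraries and close to the detection limit with IL-4. It passed the read filter through the control libraries alone, which fixed its direction, so its adjusted p is no evidence of a fall. The log2 fold change was -4.67 ± 0.38 (adjusted p = 4.64e-05), or 25.5-fold lower. It lay between -5.17 and -4.17 when single libraries were left out, and was -3.41 on log2(FPKM + 0.1) and -1.24 on log2(FPKM + 1), scales that understate changes of low genes.

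Tlr13 (chrX:106143275-106160493) encodes a receptor for a sequence in bacterial ribosomal RNA that mice have and humans lack. It was at 20.27, 22.8 and 22.54 FPKM in the control and at 6.2, 6.45 and 6.04 FPKM in the IL-4 libraries. It was the highest TLR gene in every control library, and the groups were far apart. Normalized counts fell from 2346 ± 151 to 754 ± 35.8, a log2 fold change of -1.64 ± 0.073 (adjusted p = 1.72e-06), or 3.11-fold lower.

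Tlr7 (chrX:167303380-167330574) encodes a receptor for single-stranded RNA. It was at 14.69, 16.25 and 16.89 FPKM in the control and at 6.29, 6.48 and 5.31 FPKM in the IL-4 libraries, with no overlap. Normalized counts fell from 1626 ± 111 to 695 ± 80.0, a log2 fold change of -1.23 ± 0.098 (adjusted p = 4.05e-05), or 2.34-fold lower. Tlr8 (chrX:167241123-167264329), the next gene on the chromosome at 39050 bases from Tlr7, encodes a related endosomal receptor for RNA and its breakdown products. It was at 8.39, 9.28 and 9.24 FPKM in the control and at 11.79, 11.38 and 10.39 FPKM in the IL-4 libraries. The IL-4 libraries were above the control libraries by a small margin. Normalized counts rose from 1168 ± 61.4 to 1624 ± 207, a log2 fold change of 0.48 ± 0.0998 (adjusted p = 0.00687), or 1.39-fold. These neighbours therefore moved in opposite directions.

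Tlr3 (chr8:45395665-45411075), which encodes the receptor for double-stranded RNA and signals through TRIF alone, was at 3.98, 3.95 and 3.74 FPKM in the control and at 3.25, 3.13 and 2.85 FPKM in the IL-4 libraries. The FPKM did not overlap, but the normalized counts did, by a narrow margin (428.7 in control replicate 3 and 429.0 in IL-4 replicate 4). The log2 fold change was -0.16 ± 0.087 (adjusted p = 0.185). Tlr3 passed with library totals alone (-0.34, adjusted p = 0.0111) and with limma on log2(FPKM + 0.1) (adjusted p = 0.016) or log2(FPKM + 1) (adjusted p = 0.0144). Those 3 settings also shifted the median of all genes, by -0.17, -0.17 and -0.13.

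**Figure D2:**
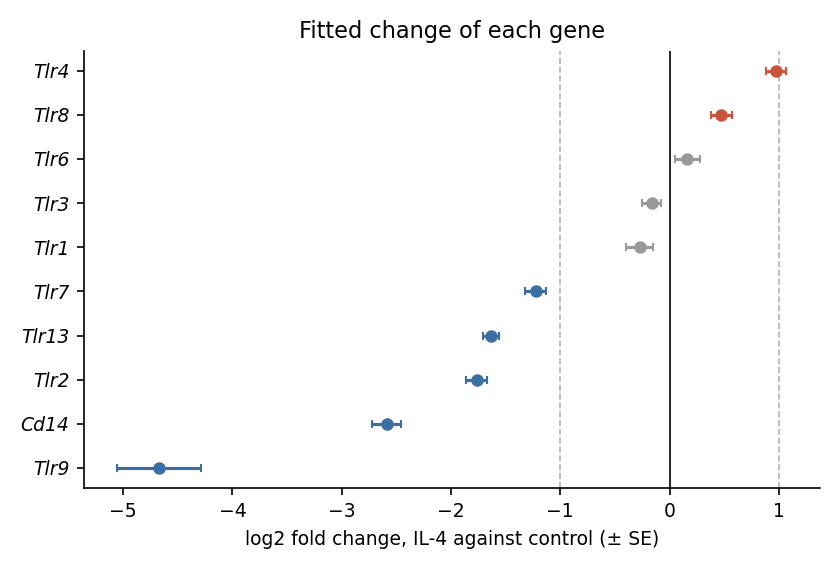
Log2 fold change of each gene, IL-4 against control, with its SE (edgeR, 3 libraries per group). Red marks genes called higher, blue lower and grey neither. Dashed lines stand at a 2-fold change. Tlr9 was lowest at -4.67 and Tlr4 highest at 0.98.

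The 250 bases before the start of Tlr9 and Tlr13, which fell, and of Tlr8, which rose, are printed from RefSeq on GRCm38.p6. The window of Tlr2, which fell more than Tlr13, was available but overlaps an annotated exon and is not printed. No window was available for Tlr4, which rose more than Tlr8. Capitals mark matches on either strand to GAGGAA (the core bound by ETS factors such as PU.1), TTC and GAA with a gap of 3 or 4 bases (STAT), TGA and TCA with a gap of 1 base (AP-1) and TATAAA. Tlr9 is at chr9:106222348-106222597 (plus strand), Tlr13 at chrX:106143025-106143274 (plus strand) and Tlr8 at chrX:167264330-167264579 (minus strand):
Tlr9: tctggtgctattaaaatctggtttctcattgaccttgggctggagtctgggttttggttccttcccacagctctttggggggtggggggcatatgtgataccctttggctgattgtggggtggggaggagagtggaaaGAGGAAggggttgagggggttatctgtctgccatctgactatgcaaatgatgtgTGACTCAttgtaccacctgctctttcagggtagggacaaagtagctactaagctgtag
Tlr13: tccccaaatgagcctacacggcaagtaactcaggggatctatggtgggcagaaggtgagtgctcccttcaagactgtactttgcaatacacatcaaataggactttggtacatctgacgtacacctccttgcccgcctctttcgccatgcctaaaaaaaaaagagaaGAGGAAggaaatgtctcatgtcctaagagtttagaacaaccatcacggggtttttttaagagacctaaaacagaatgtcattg
Tlr8: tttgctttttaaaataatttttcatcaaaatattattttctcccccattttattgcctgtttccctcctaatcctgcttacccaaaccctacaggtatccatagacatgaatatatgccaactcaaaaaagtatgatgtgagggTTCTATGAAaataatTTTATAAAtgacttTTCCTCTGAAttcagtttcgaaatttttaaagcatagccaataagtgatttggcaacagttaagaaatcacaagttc

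Tlr9 and Tlr13, which fell, each held GAGGAA, starting 112 and 83 bases before the start. No GAGGAA was found in the window of Tlr2, which also fell. Tlr9 also held the AP-1 letters, 58 bases before the start. Tlr8, which rose, held the STAT letters with the gap of 3 bases at 106 and with the gap of 4 bases at 77 bases before the start. The latter overlaps a GAGGAA on the other strand, and TATAAA was found on both strands, from 91 and 89 bases before the start. The windows searched run from 250 bases before to 50 after each start, and 9 of them belong to 7 of the 10 genes. Tlr4, Tlr7 and Cd14 had no window and were not searched, so nothing is known here of their motifs. GAGGAA was in 4 of the 9 windows, of Tlr1, Tlr8, Tlr9 and Tlr13, and in 28.3% of all 32851 windows. The STAT letters with a gap of 3 were in 3 windows, of Tlr1, Tlr6 and Tlr8, against 8.3%, and with a gap of 4 in 1, of Tlr8, against 6.95%. Of these genes, Tlr1 and Tlr6 did not pass the test. The AP-1 letters were in 1 window against 7.81% of all and TATAAA in 2 against 13.6%. GGG and CC with a gap of 5 bases (NF-kappaB) were in 3 windows, of Tlr2, Tlr3 and Tlr6, against 50.8% of all, and GAAA repeated after a gap of 2 bases (interferon response) in 1, of Tlr6, against 3.44%. These are matches of letters and do not show binding.

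Levels per transcript length allow the genes to be ranked within a group. By median FPKM the control order was Cd14 (51.03), Tlr13 (22.54), Tlr7 (16.25), Tlr2 (9.26), Tlr8 (9.24), Tlr4 (9.11), Tlr1 (4.41), Tlr3 (3.95), Tlr6 (1.7) and Tlr9 (1.42). The ranges of Tlr2, Tlr8 and Tlr4 overlapped from one to the next, as did those of Tlr1 and Tlr3 and of Tlr6 and Tlr9. With IL-4 the order was Tlr4 (16.67), Tlr8 (11.38), Cd14 (7.21), Tlr7 (6.29), Tlr13 (6.2), Tlr1 (3.22), Tlr3 (3.13), Tlr2 (2.44), Tlr6 (1.7) and Tlr9 (0.06). There, only Tlr7 with Tlr13 and Tlr1 with Tlr3 had overlapping ranges among neighbours.

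The other mouse TLR genes, which are Tlr5, Tlr11 and Tlr12, complete the family. Tlr5, the gene of the flagellin receptor, was at 1.19, 1.13 and 1.01 FPKM in the control and at 4.7, 4.32 and 2.66 FPKM in the IL-4 libraries, and rose with a log2 fold change of 1.98 ± 0.23 (adjusted p = 0.000301). IL-4 replicate 6 was the lowest of its group but still above every control library. Tlr11 was at 0 to 0.03 FPKM and Tlr12 at 0 to 0.01 FPKM, too few reads for a fold change.

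The sum of FPKM over the 12 Tlr genes was 77.98 ± 4.57 in the control and 53.75 ± 4.31 in the IL-4 libraries. Tlr13 held 28.0% ± 0.383 of the control sum and 11.6% ± 0.708 of the IL-4 sum. Tlr4 held 11.7% ± 0.906 and 29.4% ± 0.684. The largest single share thus passed from Tlr13 to Tlr4. Tlr7 went from 20.4% ± 0.332 to 11.2% ± 0.35, Tlr8 from 11.5% ± 0.106 to 20.8% ± 0.485, and Tlr2 from 12.2% ± 0.889 to 4.66% ± 0.651. The endosomal genes together held 66.3% to 67.6% in the control and 48.8% to 50.4% in the IL-4 libraries, groups that did not overlap. These shares are descriptions of levels, with no test.

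**Figure D3:**
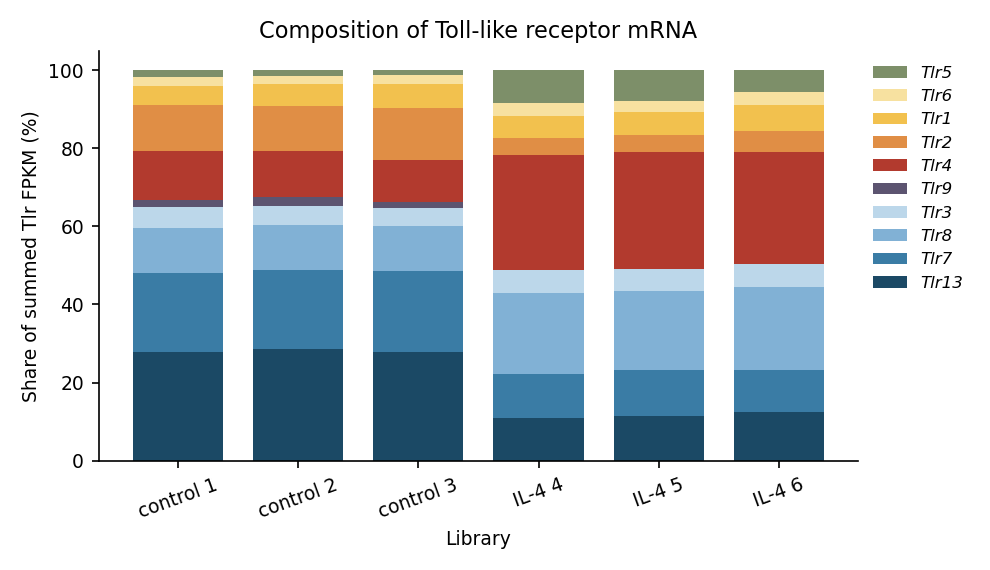
Share of each Tlr gene (%) in the summed FPKM of the Tlr genes, stacked for each of the 3 control and 3 IL-4 libraries, with endosomal receptors in blue and purple at the bottom and surface receptors above. Tlr11 and Tlr12 are left out of the drawing because they held under 0.1% of the sum. The Tlr4 band widened from 10.72% to 12.52% in the control to 28.67% to 30.03% with IL-4.

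Ratios of FPKM within a library do not depend on the scaling between libraries. The ratio of Cd14 to Tlr4 was 5.27, 5.41 and 7.03 in the control and 0.419, 0.429 and 0.671 in the IL-4 libraries, so Cd14 was above Tlr4 in each control library and below it in each IL-4 library. On log2(FPKM + 0.1) it went from 2.54 ± 0.229 to -1.01 ± 0.379 (SD, n = 3 each), a difference of -3.54. The ratio of Tlr7 to Tlr8 was 1.75, 1.75 and 1.83 in the control and 0.534, 0.569 and 0.511 in the IL-4 libraries. It also crossed 1, with a log2 difference of -1.71. The ratio of Tlr2 to Tlr4 was 0.951, 0.982 and 1.24 in the control and 0.146, 0.142 and 0.189 in the IL-4 libraries, a log2 difference of -2.69. The ratio of Tlr1 to Tlr6 was 2.13, 2.59 and 2.61 against 1.67, 1.89 and 2.01, a smaller log2 difference of -0.38 in genes that share reads. In each of these 4 pairs the groups did not overlap, and the two-sided exact permutation test gave p = 0.1, the smallest that 3 against 3 libraries can give, so this test cannot reach 0.05. The Benjamini-Hochberg adjustment over the 4 pairs leaves it at 0.1.

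**Figure D4:**
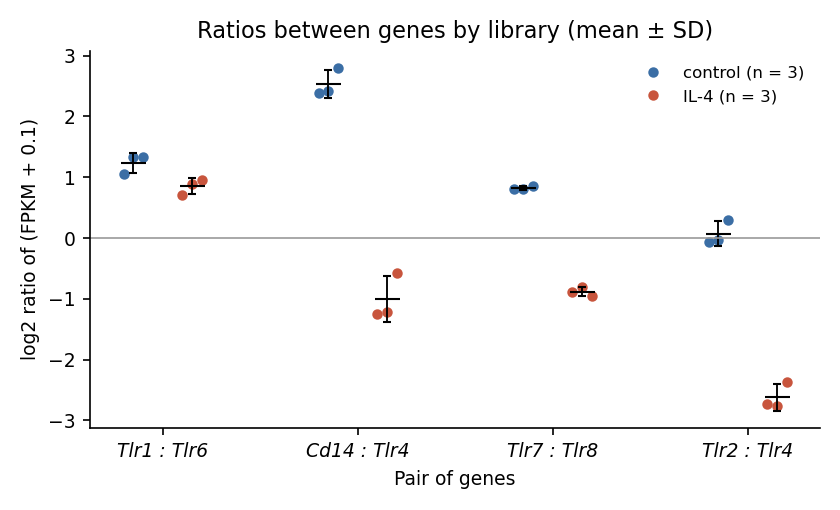
Log2 ratio of (FPKM + 0.1) between the members of 4 pairs in each library (points), with the mean and SD of the 3 control (blue) and 3 IL-4 (red) libraries. Cd14 to Tlr4 and Tlr7 to Tlr8 changed sign, from 2.54 to -1.01 and from 0.82 to -0.88.

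The genes with the pattern most like Cd14 and Tlr4 were sought among 11410 genes, by the root mean square difference of log2 normalized counts over the 6 libraries, each gene centred on its mean. Nearest to Cd14 were Spp1 (0.0396), Ms4a6b (0.0463) and Fcrls (0.116), with log2 fold changes of -2.56, -2.52 and -2.75. Nearest to Tlr4, which had the highest mean normalized count of the TLR genes, were Afap1l2 (0.0337), Rps6kc1 (0.0343) and Secisbp2l (0.0344), with log2 fold changes of 0.97, 0.97 and 1.03. All libraries enter this measure, including the difference between the groups.

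Among the accessory and transport proteins of TLRs, 5 of 10 genes rose, 3 fell and 2 did not pass the test, with a median log2 fold change of 0.25. The rises numbered 3 without control replicate 1 or without control replicate 2. Over all genes tested, 18.9% were called higher and 18.3% lower. Ly96, which encodes the MD-2 that holds lipopolysaccharide on TLR4, was at 9.84, 9.64 and 12.8 FPKM in the control and at 12.35, 12.96 and 16.96 FPKM in the IL-4 libraries (log2 fold change 0.56 ± 0.16, adjusted p = 0.0238). The FPKM of the groups overlapped, with control replicate 3 above IL-4 replicate 4. Ly96 lost its call with library totals (adjusted p = 0.0879), with limma on log2(FPKM + 0.1) (adjusted p = 0.0718) or log2(FPKM + 1) (adjusted p = 0.0746), without control replicate 1 (adjusted p = 0.094) and without control replicate 2 (adjusted p = 0.0875). Lbp, the gene of the lipopolysaccharide-binding protein, rose by 1.57 ± 0.081 on the log2 scale (adjusted p = 3.86e-06), from 7.26 to 8.7 FPKM in the control to 19.87 to 20.87. Cd36, which encodes a fatty acid transporter that also presents lipids to TLR2 with TLR6, rose by 1.48 ± 0.068 (adjusted p = 1.81e-06), from 39.75 to 40.84 FPKM to 93.01 to 105.85. Cd180 and Ly86, the genes of the TLR4-like RP105 and its partner MD-1, fell together, with log2 fold changes of -1.61 ± 0.087 (adjusted p = 5.05e-06) and -1.18 ± 0.13 (adjusted p = 0.000231). Unc93b1, which carries the endosomal receptors from the endoplasmic reticulum, was at 48.89 to 59.12 FPKM in the control and at 31.74 to 36.36 FPKM in the IL-4 libraries (log2 fold change -0.43 ± 0.087, adjusted p = 0.00562).

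Of 18 adaptors, kinases and transcription factors downstream of the receptors, 2 rose, 4 fell and 12 did not pass the test. Over all genes tested, 18.9% were called higher and 18.3% lower. The list had a median log2 fold change of -0.08, and none of its genes moved beyond 2-fold. The 2 that rose were Ticam1, which encodes TRIF itself (0.46 ± 0.068, adjusted p = 0.00111), and Ticam2, which encodes the TRAM that links TRIF to TLR4 (0.82 ± 0.12, adjusted p = 0.000945). Myd88, the adaptor of all TLRs but TLR3, was at 25.77 to 30.92 FPKM in the control and at 20.41 to 23.24 FPKM in the IL-4 libraries (log2 fold change -0.20 ± 0.082, adjusted p = 0.0978). Tirap, which brings MyD88 to the surface receptors, was at 5.3 to 5.44 and at 4.21 to 4.46 FPKM (-0.13 ± 0.064, adjusted p = 0.149). Myd88 and Tirap passed the test with library totals and with limma on FPKM. Myd88 also passed without IL-4 replicate 6 (log2 fold change -0.24, adjusted p = 0.0219). Irak2, a kinase of the MyD88 complex, fell by 0.57 ± 0.079 on the log2 scale (adjusted p = 0.000822). Map3k7, which encodes TAK1, and Tab2, which encodes its partner, fell by 0.27 each (adjusted p = 0.0229 and 0.0243), calls that were lost without control replicate 1, control replicate 2 or IL-4 replicate 5, and for Tab2 also without control replicate 3. The remaining fall was that of Tbk1, a kinase upstream of IRF3, with -0.24 ± 0.056 (adjusted p = 0.01), named after its value was seen and lost without control replicate 1 (adjusted p = 0.0504). Fewer genes of this list fell without control replicate 1 (1 gene), control replicate 2 (2 genes) or IL-4 replicate 5 (2 genes).

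Of 13 negative regulators of TLR signalling, 4 rose, 1 fell and 8 did not pass the test, with a median log2 fold change of 0.07. Over all genes tested, 18.9% were called higher and 18.3% lower. Socs1, a suppressor of cytokine signalling, was at 2.87 to 3.74 FPKM in the control and at 23.03 to 34.02 FPKM in the IL-4 libraries, a log2 fold change of 3.19 ± 0.17 (adjusted p = 3.94e-06). Atf3, a stress-response transcription factor that restrains cytokine genes, was at 6.91 to 8.0 and 22.94 to 33.81 FPKM (2.08 ± 0.14, adjusted p = 1.42e-05). Zc3h12a, an RNase that cleaves cytokine mRNAs, rose by 0.64 ± 0.077 (adjusted p = 0.000378). The fourth was Irak3, an inactive relative of the IRAK kinases (0.60 ± 0.061, adjusted p = 0.000143), named after its value was seen. Dusp1, a phosphatase of MAP kinases, fell by 0.31 ± 0.099 (adjusted p = 0.0434), a call that was lost in 5 of 6 fits without a single library, with adjusted p-values of 0.0955 to 0.158.

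Of 18 genes that TLR ligands induce in myeloid cells, 13 had enough reads, and of these 7 fell, all beyond 2-fold, 3 rose and 3 did not pass the test. The median log2 fold change was -1.02. Over all genes tested, 18.3% were called lower, 5.25% lower beyond 2-fold and 18.9% higher. The counts include genes with enough reads in 1 group only, whose direction the read filter fixed. These were Il10 and Marco, which had enough reads in the control, and Il1a, which had enough with IL-4. Acod1, which did not pass the test, also had enough reads in the control only. Its expected counts were 20, 18 and 29 in the control and 7, 9 and 21 in the IL-4 libraries. Tnf was at 4.73 to 5.54 FPKM in the control and at 0.37 to 0.59 FPKM in the IL-4 libraries (-3.25 ± 0.17, adjusted p = 4.45e-06). The chemokine genes Ccl3 and Ccl4 fell, with log2 fold changes of -2.82 ± 0.19 and -3.12 ± 0.22 (adjusted p = 1.79e-05 and 2.1e-05), with all IL-4 libraries below all control libraries. The 3 rises, named after their values were seen, were Il1a, Nos2 and Il6. Nos2, the gene of the inducible nitric oxide synthase, was at 0.1 to 0.2 FPKM in the control and at 1.13 to 1.54 FPKM in the IL-4 libraries (3.52 ± 0.25, adjusted p = 2.17e-05). Il1a was at 0.04 to 0.09 and at 0.24 to 0.36 FPKM (2.40 ± 0.39, adjusted p = 0.0019). Il6 was at 1.5 to 1.96 and 1.71 to 3.01 FPKM, with overlap (0.67 ± 0.22, adjusted p = 0.0488), and lost its call with DESeq2 (adjusted p = 0.0531) and with 9 other settings. As with the receptors, the macrophage marker sum fell in the same libraries, and its part was not tested.

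**Figure D5:**
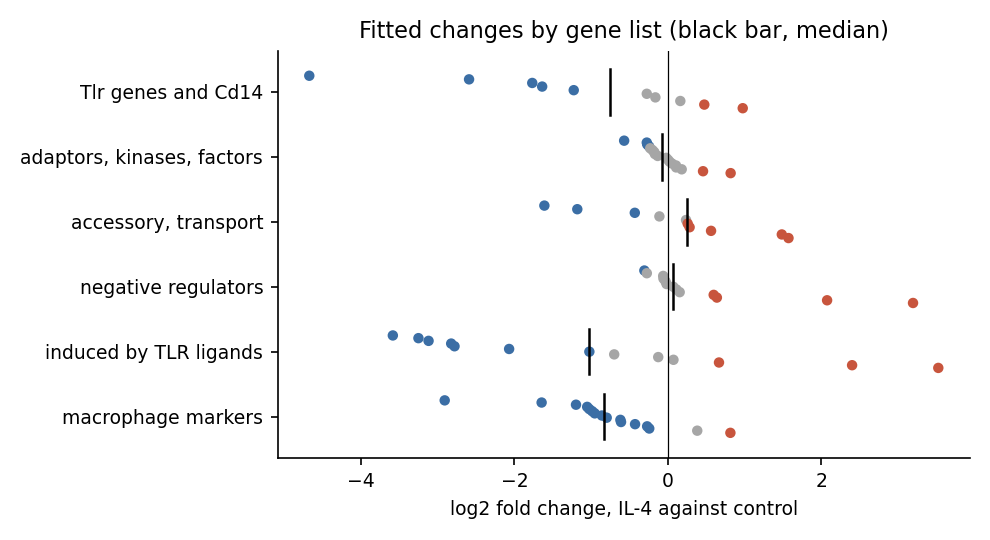
Log2 fold change (IL-4 against control) of each tested gene in the TLR group and in the lists of adaptors, accessory proteins, negative regulators, genes induced by TLR ligands and macrophage markers, with red for higher, blue for lower, grey for neither and a black bar at the median. The medians were -0.75, -0.08, 0.25, 0.07, -1.02 and -0.83.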

How the data were processed

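Per the study's methods, low-quality BGISEQ-500 reads were removed with SOAPnuke, the reads were mapped to mm10 with HISAT, and gene levels were computed with Bowtie2 and RSEM. StringTie is also named in the submitters' processing notes. The authors deposited, for each mRNA-seq library, expected counts (not normalized) and FPKM (scaled for transcript length and depth). Whole numbers made up 87.0% of the expected counts above 0, since reads that fit several genes are split among them. A gene not listed in a library was taken as 0. The library totals leave out 1 row without a gene symbol, which held at most 0.000225% of a library's counts. Depth per library is given with the results, and the counts limit the precision of low genes such as Tlr9.

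Expected counts were rounded and filtered with filterByExpr (minimum count 10, minimum total 15), which left 14009 of 18345 genes with a count, and scaled by TMM in edgeR 4.0.16 (R 4.3.3). Control and IL-4 groups (3 libraries each, from the labels) were compared in edgeR with its quasi-likelihood test, and p-values were adjusted over all tested genes by the Benjamini-Hochberg method. The study itself used DESeq2, which was run here (1.42.0) as an alternative beside limma 3.58.1, other scalings, no filter and leaving out each library. To give normalized counts, each count was divided by its library's TMM-scaled size, then multiplied by the mean of those sizes. Ratios between genes used FPKM with a pseudocount of 0.1 and a two-sided exact permutation test.

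The members and lists were chosen with earlier results of these data known. Named genes are the members, the other mouse TLRs, Ly96, Unc93b1, Myd88, Tirap, Ticam1 and Ticam2, and from each list up to 3 rises and 3 falls among called genes with a mean of at least 100 normalized counts. Sequences and coordinates are from RefSeq on GRCm38.p6, the assembly of mm10. Promoter windows were taken for Tlr9, Tlr13 and Tlr8. The window of Tlr2 overlaps an annotated exon and is not printed. The scripts were tested on simulated data. The small RNA libraries were not used here. Ratios and figures were made with pandas 2.3.3, numpy 2.4.6, matplotlib 3.10.9 and scipy 1.17.1 in Python 3.11.15.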

Additional observations from a re-analysis of the deposited data

How the results depend on the processing

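The calls of Tlr2, Tlr4, Tlr7, Tlr8, Tlr9, Tlr13 and Cd14 kept their direction and side of the threshold in all 12 alternatives, with a highest adjusted p of 0.0384, for Tlr8. For Tlr9, the read filter fixed the direction wherever it was applied. The count of genes higher with IL-4 stayed at 2, and that of genes lower was 5 to 7. Tlr1, called in 4 alternatives, and Tlr3, called in 3, are described above. Genes higher beyond 2-fold numbered 0 to 1 with a library left out. With library totals the log2 median of all genes moved to -0.17, and 25.7% of all calls were higher against 50.9% with TMM. With library totals and with limma on log2(FPKM + 1) and log2(FPKM + 0.1) alike, 9 adaptors, kinases and factors were lower (4 with TMM), 2 accessory proteins were higher (5 with TMM) and 2 negative regulators were lower (1 with TMM). Upper-quartile scaling left 0 negative regulators lower. Leaving out each library gave 1 to 6 adaptors, kinases and factors lower, 3 to 6 accessory proteins higher and 0 to 2 negative regulators lower. A change of scaling moves all genes together by construction. With a pseudocount of 1 FPKM the log2 difference was -1.56 for Tlr7 to Tlr8 and -2.33 for Tlr2 to Tlr4.

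No paired analysis was possible because the control libraries carry the numbers 1 to 3 and the IL-4 libraries 4 to 6, so no number is shared. With 3 libraries per group, small changes such as those of Tlr1, Tlr3 and Tlr6 were not resolved at this spread, and the 15 expected counts of Tlr9 in the IL-4 libraries limit its fold change.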
